A study of Mus musculus with 6 samples.

Results

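Eph receptors and ephrins were compared in the hippocampus of Tg2576 mice on 6 Affymetrix MG430 2.0 chips. The set holds 10 genes, the receptors Epha4, Epha5, Epha6, Epha7, Ephb1, Ephb2 and Ephb6 and the ligands Efna3, Efna5 and Efnb3. All probe sets whose only annotated gene symbol was one of these were taken, which gave 21 of the 45101 probe sets on the chip, for 9 of the 10 genes. The annotation names 18194 genes in all. No probe set was matched to Ephb2, which was not analysed here. All mice were male Tg2576 mice on a C57BL/6 background, which carry human APP695 with the Swedish double mutation under the prion protein promoter. The 3 groups were 18 month-old mice that had received the angiotensin-converting enzyme inhibitor captopril at 20 mg/kg per day in the drinking water for 6 months (Tg-18mo-ACEI), untreated 18 month-old mice (Tg-18mo) and untreated 12 month-old mice (Tg-12mo), with 2 chips each. Every chip carried a pool of RNA from 4 mice, and no mice without the transgene were included. The comparisons ask how captopril treatment and the 6 months of ageing with amyloid plaques changed the signals of this receptor family.

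Eph receptors are receptor tyrosine kinases, and their ligands, the ephrins, are also bound to the cell surface, so that signals pass between cells in contact. Receptors of the A class mainly bind ephrin-A ligands, which are anchored by a lipid tail, and receptors of the B class mainly bind transmembrane ephrin-B ligands, while Epha4 binds both classes. The system guides axons during development, and in the adult hippocampus it regulates dendritic spines, synaptic plasticity and contacts between neurons and astrocytes.

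A probe set gives 1 linear signal intensity per chip. Log2 signals were compared with limma for the 23262 probe sets whose group mean reached 100 in at least 1 group, and p-values were adjusted over all of them (Benjamini-Hochberg). A probe set was said to rise or fall when its adjusted p was under 0.05. Of the 21 probe sets, 20 were tested. Errors are standard errors (SE) of the fit, and a log2 difference is positive when the group named first had the higher signal. Each group has only 2 chips, both of pooled RNA, so that a p-value here refers to chip-to-chip spread, which may be technical.

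Across probe sets, correlations were 0.987 to 0.992 within groups and 0.958 to 0.965 between groups. For β-actin, the ratio of 3′ to 5′ signal was 1.45 and 1.38 in Tg-18mo-ACEI, 1.98 and 1.88 in Tg-18mo, and 1.83 and 1.77 in Tg-12mo. For Gapdh this ratio was 0.854 and 0.855 in Tg-18mo-ACEI, 0.828 and 0.832 in Tg-18mo, and 0.862 and 0.849 in Tg-12mo. The 18S ribosomal RNA control (3′ probe set) read 2214 and 1999.95 in Tg-18mo-ACEI, 10219 and 11144 in Tg-18mo, and 2125 and 2121 in Tg-12mo. Of all tested probe sets, 15.9% rose and 17.7% fell in Tg-18mo-ACEI against Tg-18mo, and 25.9% rose and 21.5% fell in Tg-18mo against Tg-12mo. Of 7 tested markers of hippocampal neurons, 2 rose (Prox1 and Neurod6) and 1 fell (Spink8) in Tg-18mo-ACEI against Tg-18mo. Their summed signal was 17796 to 18909 in Tg-18mo-ACEI, 16671 to 16802 in Tg-18mo and 15619 to 16374 in Tg-12mo. Of 9 choroid plexus markers, 8 fell in the same comparison, all but Ttr (median log2 difference -2.50). Their sum was 20160.3 to 22119 in Tg-18mo-ACEI, 26284 to 28774 in Tg-18mo and 44006 to 44234 in Tg-12mo. Most of this sum was Ttr, with means of 19364 in Tg-18mo-ACEI, 18677 in Tg-18mo and 36377 in Tg-12mo. Between the ages the median log2 difference of the 9 was 0.10. Of 6 cerebellar markers, 4 rose (Gabra6, Pcp2, Cbln1 and Cbln3) and 1 fell (Zic1) in Tg-18mo-ACEI against Tg-18mo. Gabra6, Pcp2 and Cbln3 reached the group mean needed for testing only in Tg-18mo-ACEI, with means of 175, 281 and 135. Their means were 14.8, 38.6 and 28.2 in Tg-18mo, and 2.49, 28.4 and 40.6 in Tg-12mo. These 3 rises were thus measured against signals below that minimum. The cerebellar sum was 10276 to 10589.8 in Tg-18mo-ACEI, 11966 to 11967 in Tg-18mo and 12231 to 12340 in Tg-12mo. Between the ages, 2 hippocampal, 4 choroid plexus and 2 cerebellar markers rose, and 1, 1 and 2 of them fell. The cerebellar rises were those of Zic1 and of Gabra6, which was below the minimum in both groups. Striatal markers had their highest sum in Tg-18mo. Of 5 tested, 3 fell with captopril, Drd2 (log2 difference -1.64), Ppp1r1b (-1.12) and Penk (-0.68), and these 3 rose in Tg-18mo against Tg-12mo, by 1.90, 0.48 and 1.06. Their sum was 2740.01 to 2934 in Tg-18mo-ACEI, 4579 to 4769 in Tg-18mo and 2841 to 2965 in Tg-12mo. Thalamic markers also summed highest in Tg-18mo, with 1 of 4 higher and 2 lower with captopril, and 3 higher and 1 lower with age (sum 2221 to 2228 in Tg-18mo-ACEI, 2927 to 2955 in Tg-18mo and 2102 to 2159 in Tg-12mo). Oligodendrocyte markers summed highest in Tg-12mo, with 0 of 5 higher and 3 lower with captopril, and 2 higher and 3 lower with age (sum 44056 to 46083 in Tg-18mo-ACEI, 50999.9 to 52714 in Tg-18mo and 71139 to 71239 in Tg-12mo). Astrocyte markers summed lowest in Tg-18mo, with 3 of 6 higher and 2 lower with captopril, and 2 higher, Gfap by 1.07 among them, and 3 lower with age (sum 41833 to 41875 in Tg-18mo-ACEI, 37895 to 38571 in Tg-18mo and 41022 to 42248 in Tg-12mo). Of 6 microglial markers, 2 rose and 2 fell with captopril, and 3 rose and 2 fell with age, with overlapping sums in Tg-18mo-ACEI (14574 to 15012) and Tg-18mo (14518 to 15065) and 15095 to 15153 in Tg-12mo. These values differed between the groups in orders that varied by list, and so did the receptor signals described next. The part of the former in the latter was not tested. In such bulk RNA, fewer cells that express a gene and less RNA per cell cannot be told apart.

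Epha4, a receptor of dendritic spines that binds ephrins on neighbouring astrocytes and axons, lies on chromosome 1 (GRCm38.p6, 77367182 to 77515107) and had 5 probe sets, all of which rose with captopril. The study had singled out Epha4 on these chips by 1456863_at and 1421929_at, so its direction is not independent evidence. The study also measured Epha4 protein in other groups of mice, which is not covered here. The difference was large for 3 of the probe sets. For 1439757_s_at the signal was 3316 and 3351 in Tg-18mo-ACEI, 435 and 323 in Tg-18mo, and 1452 and 1267 in Tg-12mo. For 1456863_at it was 897 and 785 in Tg-18mo-ACEI, 98.7 and 96.7 in Tg-18mo, and 314 and 296 in Tg-12mo. For 1421929_at it was 2448 and 2229 in Tg-18mo-ACEI, 427 and 399 in Tg-18mo, and 919.6 and 992 in Tg-12mo. In all 3 the captopril chips were highest, the untreated 18 month chips lowest, and no group overlapped another. The untreated 18 month chips also had the highest β-actin ratios, 18S signals, and striatal and thalamic marker sums, and the lowest astrocyte sums. Their Gapdh ratios were the lowest, at 0.828 and 0.832, where the other chips had 0.849 to 0.862. The sums of the other lists had other orders. Single markers did not all follow their sum. The astrocyte markers Gfap and Aldh1l1 were highest in Tg-18mo, and the thalamic marker Tcf7l2 was lowest there. The striatal markers Drd1 and Rgs9 passed in no comparison. Whether any of these values bears on the Epha4 signals was not tested.

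In Tg-18mo-ACEI against Tg-18mo, the log2 difference was 3.15 ± 0.128 for 1439757_s_at (8.90-fold, limma adjusted p = 1.6e-06). It was 3.10 ± 0.123 for 1456863_at (8.59-fold, adjusted p = 1.4e-06) and 2.50 ± 0.0778 for 1421929_at (5.66-fold, adjusted p = 4.9e-07). Without any 1 of the 6 chips these 3 differences kept adjusted p-values of at most 0.00013. With the methods' test, which compares 2 groups without a variance shared across probe sets, none of them passed after Benjamini-Hochberg adjustment (adjusted p = 0.052 to 0.072).

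**Figure D1:**
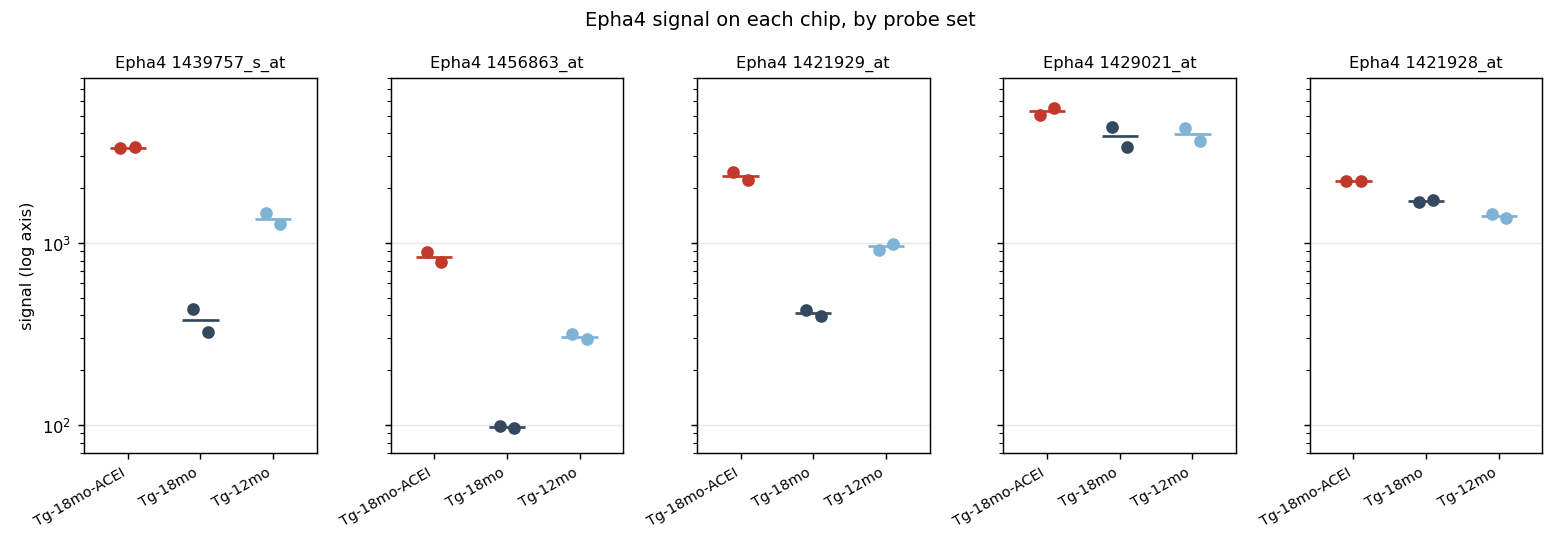
Epha4 signal (vertical log axis) for each of the 5 probe sets on each chip of Tg-18mo-ACEI, Tg-18mo and Tg-12mo, with points for chips and lines for group means. The left 3 probe sets are lowest in Tg-18mo, at 96.7 to 435, while the right 2 stay within 1366 to 5523 in all groups.

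The other 2 probe sets of Epha4 changed far less. The brightest, 1429021_at, had 5034 and 5523 in Tg-18mo-ACEI, 4333 and 3370.4 in Tg-18mo, and 4296 and 3646 in Tg-12mo. The captopril chips were above the 4 others, while the chips of the 2 untreated groups overlapped. Its log2 difference in Tg-18mo-ACEI against Tg-18mo was 0.46 ± 0.119 (1.38-fold, adjusted p = 0.018). That rise no longer passed without the second Tg-18mo chip (0.28, adjusted p = 0.097), without the second Tg-18mo-ACEI chip (0.40, adjusted p = 0.11) or without an intensity trend in the variance (adjusted p = 0.087).

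For 1421928_at the signal was 2175 and 2191 in Tg-18mo-ACEI, 1669.7 and 1730.0 in Tg-18mo, and 1436 and 1366 in Tg-12mo. Here the 3 groups stood apart in another order, with the 12 month chips lowest. The log2 difference in Tg-18mo-ACEI against Tg-18mo was 0.36 ± 0.0547 (1.28-fold, adjusted p = 0.0016). In the annotation, 1421928_at and 1421929_at are assigned to the same sequence record, although their log2 differences with captopril were 0.36 and 2.50.

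Whether the Epha4 probe sets differed from each other was tested chip by chip, on the log2 signal of each probe set minus that of the gene's brightest one. This test was added after the values had been seen, and was run on all 8797 such pairs on the chip. In Tg-18mo-ACEI against Tg-18mo, 19.6% of all pairs passed in either direction. Of the 4 Epha4 pairs, 3 passed, with 1439757_s_at rising more than 1429021_at by 2.69 on the log2 scale (adjusted p = 0.00056), 1456863_at by 2.64 (adjusted p = 0.0013) and 1421929_at by 2.04 (adjusted p = 0.0022). The fourth, 1421928_at, differed from 1429021_at by -0.10 (adjusted p = 0.69). The highest and the lowest of the 5 Epha4 log2 differences lay 2.79 apart, which ranked Epha4 at 3 among 174 genes with 5 tested probe sets, whose median was 0.70. In Tg-18mo against Tg-12mo they lay 2.14 apart (rank 8, median 0.94). In Tg-18mo-ACEI against Tg-12mo they lay 1.05 apart (rank 45, median 0.80).

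**Figure D2:**
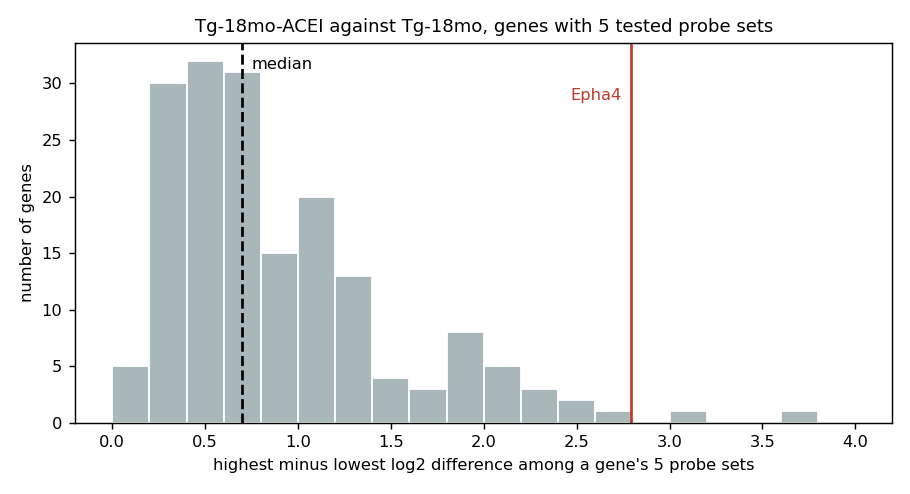
Histogram of the range of log2 differences in Tg-18mo-ACEI against Tg-18mo (horizontal axis) over the 174 genes with 5 tested probe sets (vertical axis, number of genes). The solid line marks Epha4 at 2.79 and the dashed line the median of 0.70.

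Between the ages, the Epha4 probe sets moved in opposite directions. In Tg-18mo against Tg-12mo, 3 of the 5 fell, with log2 differences of -1.86 ± 0.128 for 1439757_s_at (adjusted p = 2.1e-05), -1.64 ± 0.123 for 1456863_at (adjusted p = 3.0e-05) and -1.21 ± 0.0778 for 1421929_at (adjusted p = 1.6e-05). In contrast, 1421928_at rose by 0.28 ± 0.0547 (adjusted p = 0.0034), and 1429021_at had a log2 difference of -0.05 ± 0.119 (adjusted p = 0.75). The differences from 1429021_at passed for the 3 falling probe sets (-1.81, -1.59 and -1.16, with adjusted p = 0.0013, 0.0041 and 0.0076) and not for 1421928_at (0.33, adjusted p = 0.16). Of all pairs on the chip, 35.5% passed in this comparison. The comparisons of captopril and of age share the Tg-18mo chips and are not independent of each other.

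Against the younger mice, captopril-treated mice had higher signals for all 5 probe sets. In Tg-18mo-ACEI against Tg-12mo the log2 differences were 1.46 ± 0.123 for 1456863_at, 1.30 ± 0.128 for 1439757_s_at and 1.29 ± 0.0778 for 1421929_at, with adjusted p-values of 6.1e-05, 0.00013 and 1.9e-05. They were 0.64 ± 0.0547 for 1421928_at (adjusted p = 6.4e-05) and 0.41 ± 0.119 for 1429021_at (adjusted p = 0.023). The rise of 1429021_at did not pass without the first (0.48, adjusted p = 0.052) or the second Tg-18mo-ACEI chip (0.35, adjusted p = 0.13), nor without the second Tg-12mo chip (0.30, adjusted p = 0.13). The 3 strongly changed probe sets again differed from 1429021_at, by 1.05 for 1456863_at, 0.88 for 1439757_s_at and 0.88 for 1421929_at (adjusted p = 0.020, 0.0082 and 0.025), where 24.1% of all pairs passed. None of these 3 differences passed without the first or the second Tg-18mo-ACEI chip (adjusted p = 0.058 to 0.12), and those of 1421929_at and 1456863_at also did not pass without the first Tg-12mo chip (adjusted p = 0.069 and 0.059).

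Epha4 and Epha7 were the only member genes with a probe set that rose in Tg-18mo-ACEI against Tg-18mo, and their promoters are shown for that reason. Both sequences are RefSeq records of build GRCm38.p6, 5′ to 3′ on the gene's strand, each 300 bases long and reaching from upstream of an annotated start to just past it. Epha4 is on the minus strand of chr1:77515039-77515338 and Epha7 on the plus strand of chr4:28812881-28813180. Capitals mark the GC box GGGCGG, or CCGCCC where it lies on the other strand, with no overlapping matches.
Epha4: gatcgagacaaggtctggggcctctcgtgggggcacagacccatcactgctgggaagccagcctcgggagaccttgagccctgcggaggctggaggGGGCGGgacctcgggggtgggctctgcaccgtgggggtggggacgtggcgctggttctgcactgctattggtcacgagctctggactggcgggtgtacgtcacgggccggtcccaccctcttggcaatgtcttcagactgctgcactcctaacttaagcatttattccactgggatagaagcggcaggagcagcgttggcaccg
Epha7: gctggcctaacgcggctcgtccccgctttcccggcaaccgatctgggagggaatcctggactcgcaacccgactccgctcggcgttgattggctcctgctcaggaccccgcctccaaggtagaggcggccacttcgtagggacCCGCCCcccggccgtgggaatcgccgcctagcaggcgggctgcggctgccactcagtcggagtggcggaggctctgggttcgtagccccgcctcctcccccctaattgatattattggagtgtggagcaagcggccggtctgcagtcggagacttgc
Each promoter held 1 GC box, which 35.7% of the 32851 promoters of this length contain. Neither held the TATA motif TATAAA (13.6% of promoters, both strands) or the palindromic cyclic AMP response element TGACGTCA (1.79%). The sequences had 17 CpG dinucleotides in Epha4 and 28 in Epha7. A match or its absence in this window is a description and says nothing of a factor's binding.

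Epha7, a receptor for ephrin-A ligands that takes part in dendrite and spine development, had 4 probe sets, and 2 of them rose with captopril. For 1451991_at the signal was 2419 and 2705 in Tg-18mo-ACEI, 1805 and 1652 in Tg-18mo, and 1916 and 1557 in Tg-12mo. The 2 captopril chips were above the other 4, and the untreated groups overlapped. The log2 difference in Tg-18mo-ACEI against Tg-18mo was 0.57 ± 0.101 (1.48-fold, adjusted p = 0.0037), and in Tg-18mo-ACEI against Tg-12mo it was 0.57 ± 0.101 (adjusted p = 0.0027). A like pattern was seen for 1443485_at, with 2019 and 2208 in Tg-18mo-ACEI, 1418 and 1503 in Tg-18mo, and 1257 and 1483 in Tg-12mo. Its log2 difference was 0.53 ± 0.0864 against Tg-18mo (adjusted p = 0.0023) and 0.63 ± 0.0864 against Tg-12mo (adjusted p = 0.00069).

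The brightest Epha7 probe set, 1452380_at, had 2868 and 3264 in Tg-18mo-ACEI, 2732 and 2684 in Tg-18mo, and 2905 and 2665 in Tg-12mo. The captopril chips were above the untreated chips of the same age but overlapped with the younger ones. Its log2 differences were 0.18 ± 0.0713 in Tg-18mo-ACEI against Tg-18mo (adjusted p = 0.090), -0.04 ± 0.0713 in Tg-18mo against Tg-12mo (adjusted p = 0.68) and 0.14 ± 0.0713 in Tg-18mo-ACEI against Tg-12mo (adjusted p = 0.16). The fourth, 1427528_a_at, had a log2 difference of -0.05 with captopril (adjusted p = 0.51), and was higher by 0.35 in Tg-18mo against Tg-12mo (adjusted p = 0.0016) and by 0.29 in Tg-18mo-ACEI against Tg-12mo (adjusted p = 0.0046). Within the gene, 1451991_at rose more than 1452380_at with captopril, by 0.39 (adjusted p = 0.043), and 1427528_a_at rose more than 1452380_at between the ages, by 0.38 (adjusted p = 0.032).

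Epha6, an ephrin-A receptor of the forebrain, was the member with the largest rise with age. Its single probe set, 1421527_at, had 681 and 746 in Tg-18mo-ACEI, 693 and 641 in Tg-18mo, and 398 and 367 in Tg-12mo. All 4 chips of 18 month-old mice were above both 12 month chips, and the treated and untreated chips overlapped. The log2 difference was 0.80 ± 0.0926 in Tg-18mo against Tg-12mo (1.74-fold, adjusted p = 0.00021) and 0.90 ± 0.0926 in Tg-18mo-ACEI against Tg-12mo (1.86-fold, adjusted p = 0.00016). With captopril it was 0.10 ± 0.0926 (adjusted p = 0.46).

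Epha5, an ephrin-A5 receptor of hippocampal neurons, had 4 probe sets, of which none passed with captopril or with age. The brightest, 1444690_at, had 2411 and 2336 in Tg-18mo-ACEI, 2211 and 2156 in Tg-18mo, and 1969.5 and 2083 in Tg-12mo. The groups did not overlap, with the captopril chips highest. Its log2 difference was 0.12 ± 0.0534 in Tg-18mo-ACEI against Tg-18mo (adjusted p = 0.12) and 0.11 ± 0.0534 in Tg-18mo against Tg-12mo (adjusted p = 0.13). It passed in Tg-18mo-ACEI against Tg-12mo (0.23 ± 0.0534, adjusted p = 0.0096), but not without the first Tg-18mo-ACEI chip (0.21, adjusted p = 0.062). The log2 differences of the 3 other Epha5 probe sets lay between -0.11 and 0.49 over the 3 comparisons.

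Ephb1, a receptor for ephrin-B ligands with a part in synaptic plasticity, rose with age. Its probe set 1455188_at had 1044 and 1067 in Tg-18mo-ACEI, 1123 and 1172 in Tg-18mo, and 884 and 887 in Tg-12mo. The 12 month chips were lowest and the untreated 18 month chips highest. The log2 difference was 0.37 ± 0.0618 in Tg-18mo against Tg-12mo (adjusted p = 0.0014) and -0.12 ± 0.0618 in Tg-18mo-ACEI against Tg-18mo (adjusted p = 0.17). It was 0.25 ± 0.0618 in Tg-18mo-ACEI against Tg-12mo (adjusted p = 0.012), and did not pass there without the second Tg-18mo-ACEI chip (0.24, adjusted p = 0.068) or after quantile normalization (0.15, adjusted p = 0.10).

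Ephb6, a receptor of this family without kinase activity, had overlapping signals in all 3 groups. The probe set 1418051_at had 1189 and 1385 in Tg-18mo-ACEI, 1195 and 1370.3 in Tg-18mo, and 1334 and 1188 in Tg-12mo. Its log2 differences were 0.00 ± 0.0994 in Tg-18mo-ACEI against Tg-18mo, 0.02 ± 0.0994 in Tg-18mo against Tg-12mo and 0.03 ± 0.0994 in Tg-18mo-ACEI against Tg-12mo, with adjusted p-values of 0.98, 0.86 and 0.84.

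Among the ligands, Efna3, an ephrin-A with a known role in the contact between astrocytes and Epha4-bearing spines, gave different results by probe set. The brighter one, 1431170_at, had 1495 and 1501 in Tg-18mo-ACEI, 1665 and 1684 in Tg-18mo, and 1115 and 1040.1 in Tg-12mo. No groups overlapped, and the 12 month chips were lowest. It rose by 0.64 ± 0.0589 in Tg-18mo against Tg-12mo (1.56-fold, adjusted p = 7.2e-05) and by 0.48 ± 0.0589 in Tg-18mo-ACEI against Tg-12mo (adjusted p = 0.00040), and had a log2 difference of -0.16 ± 0.0589 with captopril (adjusted p = 0.067).

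The other Efna3 probe set, 1455344_at, had 811 and 806 in Tg-18mo-ACEI, 943 and 935 in Tg-18mo, and 915 and 928 in Tg-12mo. The groups did not overlap, and the captopril chips were lowest. It fell by 0.22 ± 0.0633 in Tg-18mo-ACEI against Tg-18mo (adjusted p = 0.031) and by 0.19 ± 0.0633 in Tg-18mo-ACEI against Tg-12mo (adjusted p = 0.043), and had a log2 difference of 0.03 ± 0.0633 between the ages (adjusted p = 0.75). The fall against Tg-18mo did not pass without any of the 4 chips compared (adjusted p = 0.099 to 0.12), and the fall against Tg-12mo did not pass without any 1 of the 6 chips (adjusted p = 0.072 to 0.14). Between the ages the 2 Efna3 probe sets differed by -0.61 (1455344_at minus 1431170_at, adjusted p = 0.0057), and in Tg-18mo-ACEI against Tg-12mo by -0.67 (adjusted p = 0.0094).

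Efnb3, a transmembrane ligand that is carried by neurons, was highest in untreated 18 month-old mice. Its probe set 1423085_at had 2319.96 and 2327 in Tg-18mo-ACEI, 2684 and 2771 in Tg-18mo, and 2274 and 2485 in Tg-12mo. The captopril chips lay between the 12 month chips, and the untreated 18 month chips were above all others. It fell by 0.23 ± 0.0570 in Tg-18mo-ACEI against Tg-18mo (adjusted p = 0.015) and was higher by 0.20 ± 0.0570 in Tg-18mo against Tg-12mo (adjusted p = 0.021). The fall did not pass without the second Tg-18mo chip (-0.21, adjusted p = 0.096) or without the first or second Tg-18mo-ACEI chip (adjusted p = 0.066 and 0.070). The difference between the ages did not pass without the first or second Tg-18mo chip (adjusted p = 0.055 and 0.11) or without the first Tg-12mo chip (0.13, adjusted p = 0.11). In Tg-18mo-ACEI against Tg-12mo the log2 difference was -0.03 ± 0.0570 (adjusted p = 0.68).

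Efna5, an ephrin-A that binds Epha4, Epha5 and Epha7, passed in no comparison. The probe set 1436866_at had 418 and 388 in Tg-18mo-ACEI, 439 and 405 in Tg-18mo, and 374 and 385 in Tg-12mo, with the chips of Tg-18mo-ACEI and Tg-18mo overlapping. Its log2 differences were -0.07 ± 0.101, 0.15 ± 0.101 and 0.09 ± 0.101 in Tg-18mo-ACEI against Tg-18mo, Tg-18mo against Tg-12mo and Tg-18mo-ACEI against Tg-12mo (adjusted p = 0.64, 0.25 and 0.53). The second, 1421796_a_at, had signals of 5.09 to 26.3 over the 6 chips and was the one member probe set below the minimum for testing.

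**Figure D3:**
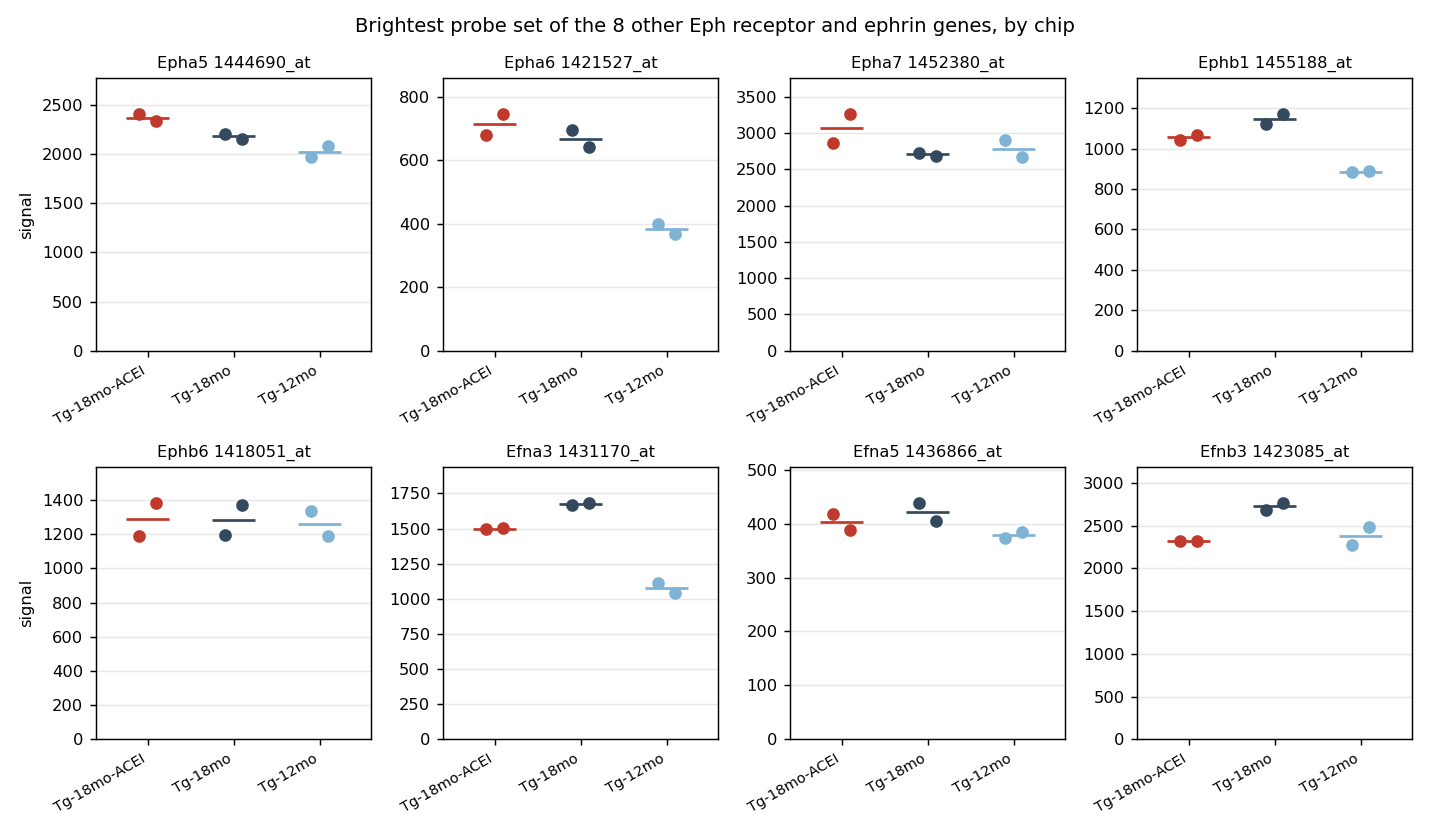
Signal (vertical axis, linear from 0) of the brightest probe set of the 8 other genes on each chip of Tg-18mo-ACEI, Tg-18mo and Tg-12mo, with points for chips and lines for group means. Epha6 is low in Tg-12mo (367 to 398), Efnb3 is high in Tg-18mo (2684 to 2771), and the groups overlap for Ephb6.

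Over the 20 tested probe sets, 7 rose and 2 fell in Tg-18mo-ACEI against Tg-18mo, and 11 did not pass. Of all probe sets tested on the chip, 15.9% rose and 17.7% fell. The 7 were the 5 of Epha4 and 2 of Epha7, and the 2 were of Efna3 and Efnb3. Without Epha4, 2 of 15 rose and 2 fell, with log2 differences between -0.23 and 0.57. The median log2 difference was 0.15 over the 20, 0.00 over the 15 and -0.04 over all probe sets tested.

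In Tg-18mo against Tg-12mo, 6 of the 20 rose and 3 fell, where 25.9% of all probe sets rose and 21.5% fell. The 3 falls were all of Epha4, and the rises came from 6 different genes, with 5 rises and 0 falls among the 15 probe sets outside Epha4. The median was 0.10 over the 20 and 0.05 over all. In Tg-18mo-ACEI against Tg-12mo, 12 rose and 1 fell (Efna3 1455344_at), where 22.3% of all probe sets rose and 17.7% fell. Without Epha4, 7 of 15 rose and 1 fell. The median was 0.39 over the 20, 0.25 over the 15 and 0.05 over all.

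**Figure D4:**
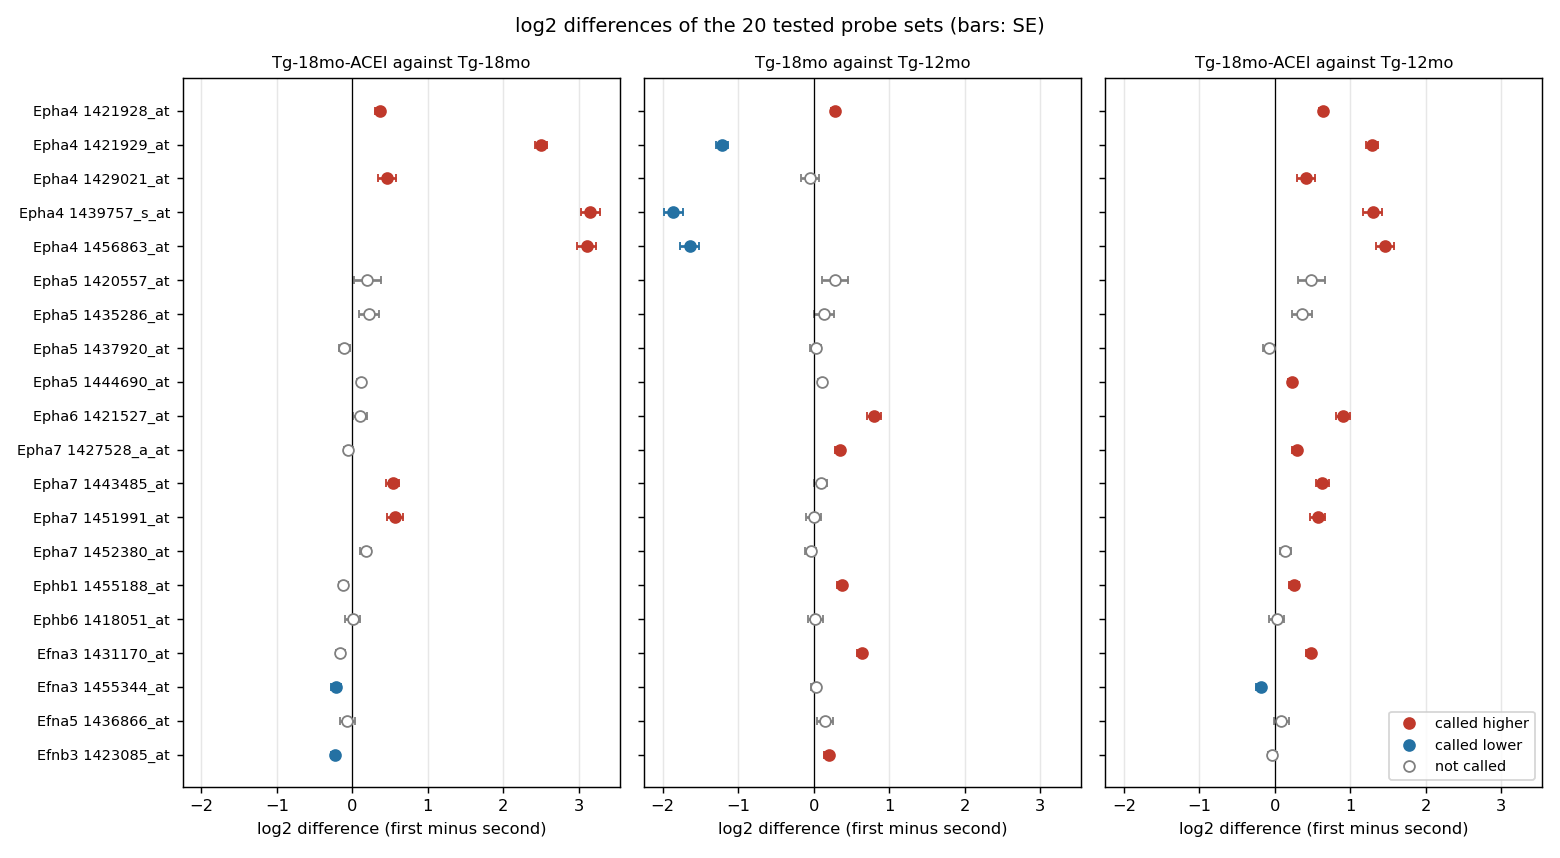
Log2 differences (horizontal axis, first group minus second) of the 20 tested probe sets (rows) in the 3 comparisons, with bars for the SE and filled points for an adjusted p under 0.05. Of the 5 Epha4 probe sets, 3 lie at 2.50 to 3.15 with captopril and at -1.86 to -1.21 between the ages, while the points outside Epha4 stay between -0.23 and 0.90.

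Of the 7 other Eph receptor genes, 3 had a tested probe set. With captopril, 1 rose and 0 fell at the brightest probe set, where 15.9% of all tested probe sets rose and 17.7% fell. Epha3, an ephrin-A receptor, had 777 and 760 in Tg-18mo-ACEI, 598 and 582 in Tg-18mo, and 533 and 466 in Tg-12mo for 1455426_at. Its log2 difference was 0.38 ± 0.0892 in Tg-18mo-ACEI against Tg-18mo (adjusted p = 0.012) and 0.62 ± 0.0892 in Tg-18mo-ACEI against Tg-12mo (adjusted p = 0.00085). Another Epha3 probe set, 1425575_at, named here after its values were seen, had 488 and 495 in Tg-18mo-ACEI, 205 and 177 in Tg-18mo, and 292 and 317 in Tg-12mo. It showed the order of the 3 strongly changed Epha4 probe sets, with a log2 difference of 1.37 ± 0.124 with captopril (adjusted p = 0.00011) and a fall of 0.68 ± 0.124 between the ages (adjusted p = 0.0024). It also differed from 1455426_at, by 0.99 with captopril (adjusted p = 0.0073) and by -0.92 between the ages (adjusted p = 0.0065). The remaining tested Epha3 probe set, 1425574_at, did not show that order. Its log2 difference was 0.93 ± 0.339 with captopril (adjusted p = 0.065) and 0.22 ± 0.339 between the ages (adjusted p = 0.62). It passed only in Tg-18mo-ACEI against Tg-12mo (1.16 ± 0.339, adjusted p = 0.026).

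Between the ages, 1 of the 3 other receptors rose, Ephb3 (log2 difference 0.46, adjusted p = 0.0034), an ephrin-B receptor. Of all tested probe sets, 25.9% rose and 21.5% fell there. In Tg-18mo-ACEI against Tg-12mo, 2 of these receptors rose, Epha3 and Ephb3 (0.33, adjusted p = 0.020), and 1 fell, Epha10 (-0.45, adjusted p = 0.0075). The shares of all tested probe sets were 22.3% and 17.7%. Of the 5 other ephrins 4 were tested. The one that passed was Efnb2, a transmembrane ligand of neurons and vessels, whose probe set 1419639_at had 1488 and 1516 in Tg-18mo-ACEI, 1229 and 1118 in Tg-18mo, and 1579 and 1542 in Tg-12mo. It rose by 0.36 with captopril (adjusted p = 0.0037), fell by 0.41 between the ages (adjusted p = 0.0010), and had a log2 difference of -0.06 in Tg-18mo-ACEI against Tg-12mo (adjusted p = 0.52). The other tested Efnb2 probe set, 1419638_at, passed in no comparison. Its log2 differences were 0.26, -0.06 and 0.20 in the same order (adjusted p = 0.12, 0.69 and 0.21).

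Of 33 genes of forward signalling, which acts in the cell that bears the receptor, 30 were tested. Each gene was counted by its brightest tested probe set only, while the shares over the chip are of all tested probe sets. A change at another probe set of a listed gene is thus not counted. With captopril 1 rose (3.33%) and 7 fell (23.3%), where 15.9% of all tested probe sets rose and 17.7% fell, and the median was -0.06, against -0.04 over all. The rise was that of Rasa1, a Ras GTPase-activating protein (0.34, adjusted p = 0.0019). The largest fall was that of Anks1, an adaptor that regulates Eph receptor turnover, with a mean of 293 in Tg-18mo-ACEI and 461 in Tg-18mo (-0.66, adjusted p = 0.0028). In Tg-18mo against Tg-12mo, 9 rose (30%) and 7 fell (23.3%), shares close to the 25.9% and 21.5% of all probe sets. Among the rises were Vav3, a guanine nucleotide exchange factor (0.89, adjusted p = 0.0016), and Anks1 (0.85, adjusted p = 0.00041). In Tg-18mo-ACEI against Tg-12mo, 6 rose (20.0%) and 9 fell (30%), against 22.3% and 17.7% of all probe sets. Vav3 was higher by 0.92 (adjusted p = 0.0017) and Arhgef19, another exchange factor, by 0.77 (adjusted p = 0.022). Among the falls, the log2 difference was -0.53 for Kalrn, an exchange factor of spines (adjusted p = 6.1e-05), and -0.58 and -0.55 for the actin regulators Limk1 and Cfl1 (adjusted p = 0.00093 and 0.00031).

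Of 10 genes of reverse signalling in the ephrin-bearing cell and of cleavage of Eph and ephrin proteins, 9 were tested. They were also counted by the brightest probe set of each gene. With captopril 1 rose (11.1%) and 5 fell (55.6%), where 15.9% of all tested probe sets rose and 17.7% fell, and the median was -0.36, against -0.04 over all. The one that rose was Adam10, a protease that cleaves ephrin-A and also acts as α-secretase (0.30, adjusted p = 0.0044). The falls were those of Adam17, a related protease (-0.57, adjusted p = 0.0091), of the γ-secretase subunits Ncstn (-0.60, adjusted p = 0.042), Aph1a (-0.61, adjusted p = 0.00098) and Psenen (-0.36, adjusted p = 0.0023), and of Rgs3, a regulator of G protein signalling that acts downstream of ephrin-B (-0.40, adjusted p = 0.0088). Between the ages 4 rose (Adam17, Ncstn, Rgs3 and Psenen) and 1 fell (Adam10), which is 44.4% and 11.1% of the 9, against 25.9% and 21.5% of all probe sets, with Adam17 higher by 0.65 (adjusted p = 0.0031) and Ncstn by 0.78 (adjusted p = 0.011) in Tg-18mo. In Tg-18mo-ACEI against Tg-12mo, 0 rose and 3 fell (33.3%), against 22.3% and 17.7% of all probe sets. The 3 were Psenen (-0.19, adjusted p = 0.034), Aph1a (-0.52, adjusted p = 0.0016) and Grip2, a scaffold protein that binds ephrin-B (-0.53, adjusted p = 0.022).

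The genes with a pattern nearest to that of the brightest Epha4 probe set over the 6 chips were Lats2, Igfbp3, Ube2e3, Pcm1 and Ing5. Likeness was the root mean square difference of log2 signals, each centred on its own mean, and it was 0.031 for Lats2 and 0.064 for Ing5. The nearest probe set of Lats2 had 1409 and 1521 in Tg-18mo-ACEI, 1192 and 973 in Tg-18mo, and 1178 and 1050.4 in Tg-12mo, and thus also had its lowest chip in the second Tg-18mo sample.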

How the data were processed

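The authors hybridized pooled hippocampal RNA to 6 chips and processed the scans with GCOS to a common target value. Each probe set has 1 deposited intensity per chip, on a linear scale. The mean after trimming 2 percent at each end was 600.0 on every chip. Probe sets were named from the platform annotation, and 64 control probe sets were left out. Log2 signals of 23262 probe sets (a group mean that reached 100) were fitted in 1 model of 3 group means with limma 3.58.1 in R 4.3.3 (trended prior variance, 3 residual and 5.37 prior degrees of freedom), with Benjamini-Hochberg adjustment over all of them. The number of arrays limits the precision. The fit was tested on simulated data.

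Per-chip values are given for the brightest probe set of each member, all tested Epha4 probe sets and members with an absolute log2 difference of at least 1. Genes of a list, markers included, were counted by their brightest tested probe set. Other genes of a list are named when they passed and differed by at least 0.5, and the 5 genes most like Epha4 were taken by root mean square difference. Further member probe sets, Epha3 1425575_at and 1425574_at, Efnb2 1419638_at, and list genes under 0.5 where few passed were named after their values were seen. Members and lists were chosen with earlier results of these data known. Probe-set differences within genes, counts without Epha4 and likeness to other Epha4 probe sets were also added afterwards. Figures were drawn with matplotlib 3.10.9 and pandas 2.3.3 (Python 3.11.15). The settings tried were an offset of 32, no filter or a mean of at least 200, quantile or median scaling, only the 2 groups compared, a replicate block, no intensity trend, the methods' test, plain probe sets, gene means and each chip left out. Probe sequences were not used here. It is not stated that the 2 chips of a group carry different mice.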

Additional observations from a re-analysis of the deposited data

How the results depend on the processing

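The counts of member probe sets rested on few calls. With the methods' test after Benjamini-Hochberg adjustment, on linear as on log2 signals, 0 rose and 0 fell in Tg-18mo-ACEI against Tg-18mo, 0 rose and 1 fell in Tg-18mo against Tg-12mo, and 0 and 0 in Tg-18mo-ACEI against Tg-12mo. At the thresholds of the methods, without adjustment, that test on linear signals gave 3 higher and 0 lower, 0 and 2, and 2 and 0 in the same order. The 2 falls in Tg-18mo-ACEI against Tg-18mo became 1 with each chip divided by its median, with no filter on low signals, with no intensity trend and with the replicate block. The single fall in Tg-18mo-ACEI against Tg-12mo became 0 under these 4 settings and with only the 2 groups compared. The replicate numbers did not pair the chips (correlations of their deviations -0.03, 0.03 and -0.05), and with the block 7, 6 and 13 rose in the 3 comparisons. With the Epha4 probe sets left out, 2 rose in Tg-18mo-ACEI against Tg-18mo, 7 rose in Tg-18mo-ACEI against Tg-12mo and 0 fell in Tg-18mo against Tg-12mo.

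Without 1 chip at a time, 6 to 8 rose and 0 to 3 fell in Tg-18mo-ACEI against Tg-18mo, 5 to 6 rose and 3 fell in Tg-18mo against Tg-12mo, and 10 to 13 rose and 0 fell in Tg-18mo-ACEI against Tg-12mo. A lone chip in a group was assumed to vary like the other groups.

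Changes of sign were confined to values that had not passed. Quantile normalization gave -0.015, -0.0595 and -0.0745 for Ephb6 in Tg-18mo-ACEI against Tg-18mo, Tg-18mo against Tg-12mo and Tg-18mo-ACEI against Tg-12mo, -0.0248 for Efna5 in Tg-18mo-ACEI against Tg-12mo and -0.0716 for Efna3 1455344_at in Tg-18mo against Tg-12mo. The mean of all Epha7 probe sets gave 0.10 between the ages. Without 1 chip at a time, Ephb6 ranged from -0.106 to 0.114, -0.0743 to 0.123 and -0.0817 to 0.138 in the 3 comparisons. Between the ages, Epha4 1429021_at ranged from -0.23 to 0.13, Epha7 1452380_at from -0.102 to 0.023, Epha7 1451991_at from -0.15 to 0.15 and Epha7 1443485_at from -0.0231 to 0.216. Efnb3 in Tg-18mo-ACEI against Tg-12mo ranged from -0.0971 to 0.0309, and Epha4 1421928_at minus 1429021_at with captopril from -0.31 to 0.10. Over the 17 named probe sets, the within-Epha4 differences and all settings, 826 values kept their direction and side of the threshold, 105 no longer passed and 9 newly passed. The causes were not tested.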

Other observations

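The genes nearest to the 3 strongly changed Epha4 probe sets were looked up after their values were seen, and differences between the probe sets of these genes are given without a test. For 1439757_s_at the nearest was a probe set of Zfp770, with 421 and 429.99 in Tg-18mo-ACEI, 56.9 and 40.3 in Tg-18mo, and 205 and 161 in Tg-12mo (root mean square difference 0.058 over 6 chips). The brightest Zfp770 probe set had a log2 difference of 0.10 with captopril (limma adjusted p = 0.26). For 1421929_at the nearest was a probe set of Scn1a, a neuronal sodium channel, with 1266 and 1354 in Tg-18mo-ACEI, 212 and 223 in Tg-18mo, and 513 and 575 in Tg-12mo, while the brightest Scn1a probe set rose by 0.30 (adjusted p = 0.0030). For 1456863_at the nearest was the only tested probe set of Creg2, with 1024 and 886 in Tg-18mo-ACEI, 101 and 99.9 in Tg-18mo, and 400.2 and 368 in Tg-12mo (3.24, adjusted p = 1.0e-06).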
